A study of Mus musculus with 9 samples.

Results

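Transcripts of genes that act in G2 and mitosis were compared across retinal progenitor cells (RPCs) made from mouse embryonic stem cells (ESC-RPCs) and primary retinal progenitor cells. The set holds 35 genes named for their function in this phase; no measured value enters the rule, although earlier results of these data were known when the set was made. Of these, 34 were measured, among 13331 genes tested; Ccnb1, the cyclin B1 gene, was listed but had no probe set given to it alone in the array annotation used, and was not analysed here. Each gene was read from its brightest probe set over the 9 arrays, and all 34 passed the filter on dim signals.

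The 9 arrays were 3 biological repeats in each of 3 groups, hybridised with biotin-labelled cRNA. Both ESC-RPC groups came from 1 parental line, 46C, itself made by gene targeting in E14Tg2a.IV cells. Both were taken through 3 days of embryoid bodies with SB431542, an inhibitor of ALK4, 5 and 7 that blocks Nodal signalling, then plated on Matrigel without retinoic acid. Sox1-positive cells, 35.8% of the culture, were sorted at day 7 and grown with bFGF at 20 ng/ml and the gamma-secretase inhibitor DAPT, which blocks Notch signalling, at 10 µM. The DKK1-treated group was given the Wnt antagonist DKK1 as recombinant protein (1 ng/ml) over 1 day, while the untreated group, titled normal control, did not. Neural retina of C57 mice, dissociated at postnatal day 1, gave the primary RPCs, which were untreated; 1 label calls them cultured. The design text treats untreated cells as an early stage, DKK1-treated cells as a later one, and primary cells as the negative control in a search for pathways of proliferation and oncogenesis. Line, strain, culture and cell type all differ between ESC-RPCs and primary cells and cannot be told apart here.

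Entry into mitosis is driven by CDK1 bound to A- and B-type cyclins. Aurora and Polo-like kinases then build the spindle, kinetochores attach chromosomes to it, and a checkpoint holds back the anaphase-promoting complex until every chromosome is attached. Most of these genes are transcribed late in the cell cycle, so that in a bulk sample their mRNA is known as a mark of dividing cells. In bulk RNA a smaller share of dividing cells and less RNA per dividing cell cannot be told apart. Newborn mouse retina still holds dividing progenitors beside postmitotic neurons and photoreceptor precursors.

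Late cell-cycle promoters are known for a short element, the cell cycle genes homology region (CHR), read by MuvB complexes, often near CCAAT boxes, which bind NF-Y. These elements were searched on both strands, as TTTGAA or TTCGAA for the CHR and as CCAAT for the box, from 250 bases before to 50 after the gene start in RefSeq (GRCm38.p6). A promoter was matched for 29 of the 34 measured members. A CHR was present in 22 of 29 (75.9%), against 19.2% of all 32851 promoters of that length. A CCAAT box was present in 21 of 29 (72.4%), against 37.4% of all, and 2 or more boxes in 15 (51.7%), against 11.7%. Both elements together stood in 19 (65.5%), against 7.52%. A match of letters is a description and not a binding site. The stretches before the gene start are shown for 6 members called in untreated ESC-RPCs against primary RPCs by their brightest probe set. Of these, 3 were higher in untreated cells (Ccnb2, Bub1, Hmmr) and 3 were lower (Cdk1, Mki67, Nuf2). For Bub1 and for Hmmr a dimmer probe set was called in the other direction. Capitals mark CCAAT or its complement ATTGG and TTTGAA or its complement TTCAAA; all 6 lie on the minus strand and are written 5′ to 3′ in the direction of the gene, at chr9:70421555-70421754 (Ccnb2), chr2:127831860-127831959 (Bub1), chr11:40733438-40733637 (Hmmr), chr10:69352913-69353012 (Cdk1), chr7:135716380-135716579 (Mki67) and chr1:169531465-169531564 (Nuf2).
Ccnb2: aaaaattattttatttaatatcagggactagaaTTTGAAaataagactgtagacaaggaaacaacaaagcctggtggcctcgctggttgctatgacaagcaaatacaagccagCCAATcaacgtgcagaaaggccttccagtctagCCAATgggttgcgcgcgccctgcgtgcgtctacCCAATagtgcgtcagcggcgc
Bub1: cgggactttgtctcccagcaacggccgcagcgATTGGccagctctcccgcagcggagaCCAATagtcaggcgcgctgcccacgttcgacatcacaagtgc
Hmmr: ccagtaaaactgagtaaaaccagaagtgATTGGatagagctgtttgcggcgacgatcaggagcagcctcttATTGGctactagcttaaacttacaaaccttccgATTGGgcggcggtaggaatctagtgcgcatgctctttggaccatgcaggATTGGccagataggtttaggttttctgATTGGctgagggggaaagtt
Cdk1: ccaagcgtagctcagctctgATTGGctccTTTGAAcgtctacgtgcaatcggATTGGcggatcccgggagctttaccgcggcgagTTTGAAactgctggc
Mki67: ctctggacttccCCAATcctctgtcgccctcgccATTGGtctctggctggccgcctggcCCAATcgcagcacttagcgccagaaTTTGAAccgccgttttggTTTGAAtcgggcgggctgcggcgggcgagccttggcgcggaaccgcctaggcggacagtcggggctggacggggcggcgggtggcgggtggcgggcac
Nuf2: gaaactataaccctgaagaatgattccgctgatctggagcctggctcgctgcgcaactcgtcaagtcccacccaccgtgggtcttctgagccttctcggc

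In the Ccnb2 promoter 3 CCAAT boxes began at -87, -54 and -21 from the gene start, 33 bases apart each time, with a CHR at -167 and another at 5 bases after the start. In the Cdk1 promoter boxes at -80 and -48 flanked a CHR at -71, and a further CHR lay at -15. Bub1 had boxes at -68 and -42 and the TTCGAA form of the CHR 15 bases after the start. In Mki67, 3 boxes between -188 and -141 preceded CHRs at -116 and -98. Nuf2 held neither element in the 300 bases searched, and the same was true of Birc5, Mad2l1, Nusap1 and Tacc3. By the brightest probe set, all 4 members that were higher in untreated cells than in primary cells held both elements. So did 4 of the 7 lower members with a promoter and 11 of the 18 that did not pass the test.

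**Figure D1:**
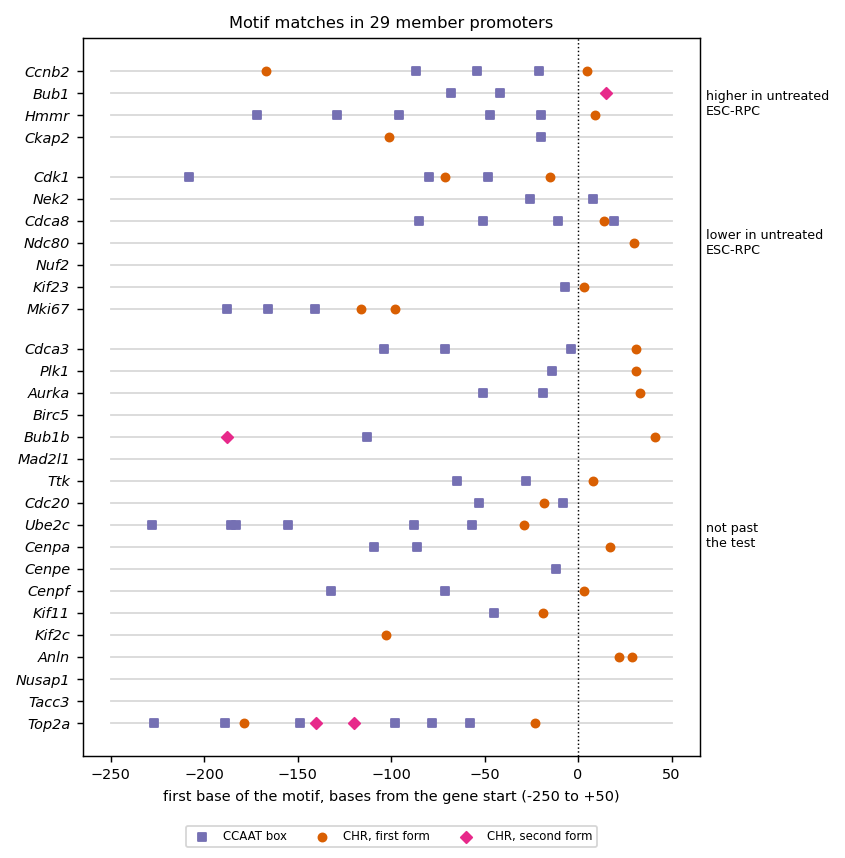
Positions of CCAAT boxes and of both forms of the CHR in 29 member promoters, in bases from the gene start. Genes are grouped by the result of their brightest probe set in untreated ESC-RPCs against primary RPCs. Both elements stand in 4 of 4 higher, 4 of 7 lower and 11 of 18 other members, and 5 promoters show no mark.

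Arrays within a group were alike over all genes, with Pearson correlations of log2 values from 0.977 to 0.983 in DKK1-treated, 0.979 to 0.984 in untreated and 0.964 to 0.977 in primary RPCs, and 0.825 to 0.836 between ESC-RPCs and primary cells. The 3′ to 5′ signal ratio of Actb, a measure of RNA integrity, was 1.32 to 1.37 in ESC-RPCs and 1.22 to 1.26 in primary RPCs. For Gapdh the ratio was 0.745 to 0.792 in ESC-RPCs and 0.725 to 0.757 in primary RPCs, and these ranges overlapped. Primary replicate 2 stood apart: its 40th percentile of intensity was 52.8, against 44.5 to 47.5 on the other 8 arrays. Arrays give no read depth, and 3 arrays a group limit the precision of every value below.

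For the mitosis genes replicate 2 tended to be the low array in all 3 groups, most so in DKK1-treated and primary cells. DKK1-treated replicate 2 was the lowest of its group for 33 of 34 members, where 36.6% of all genes had their lowest value on it, and the members' median there was -0.20 from the group mean on the log2 scale. Primary replicate 2 was the lowest of its group for 25 of 34 members, against 36.1% of all genes, with a median of -0.22. Replicate 3 was the highest for 32 members in the DKK1-treated group and for 31 in the untreated group. Genes of DNA replication went with the mitosis genes on one of these low arrays and not on the other: DKK1-treated replicate 2 was the lowest of its group for 43 of 43 replication genes, primary replicate 2 for 0 of 43. Untreated replicate 2 was the lowest of its group for 20 of 34 members, against 32.3% of all genes, with a median of -0.08, and for 33 of 43 replication genes. Values without these arrays follow beside the counts they move.

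**Figure D2:**
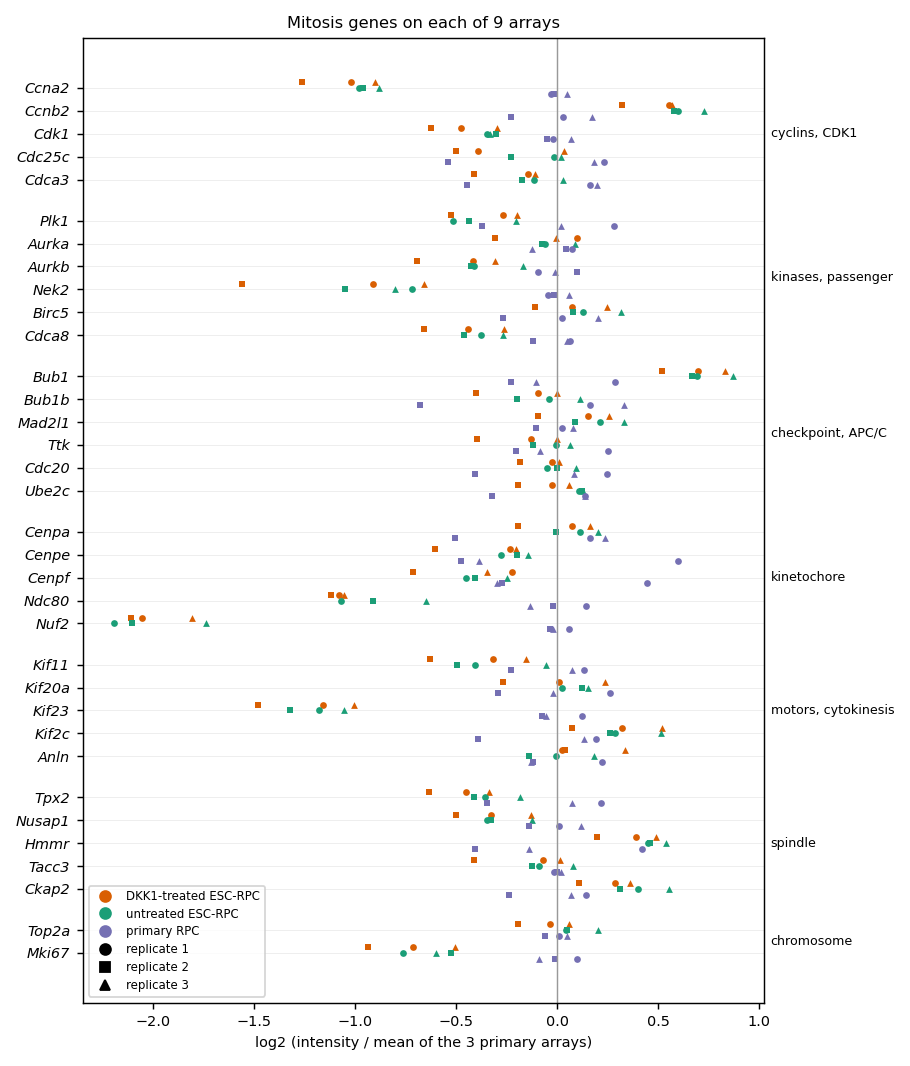
Intensity of each of 34 mitosis genes on each of 9 arrays, as log2 of the ratio to the mean of the 3 primary arrays; colours are groups, marker shapes are replicate numbers, and genes are grouped by role. Nuf2, Kif23, Ccna2 and Ndc80 lie left of every primary array on all 6 ESC-RPC arrays, Bub1 and Ccnb2 lie right of them, and the square of DKK1-treated replicate 2 is the lowest of its group for 33 genes.

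The design asks how ESC-RPCs differ from primary RPCs in proliferation. Mitosis genes did not move as a block between untreated ESC-RPCs and primary RPCs: Nuf2, Kif23, Ccna2, Ndc80, Nek2, Mki67, Cdca8, Aurkb and Cdk1 were lower in ESC-RPCs, and Bub1, Ccnb2, Hmmr and Ckap2 were higher. In limma's fit over all genes, 13 of 34 members (38.2%) passed an adjusted p of 0.05, against 53.0% of all genes (26.1% higher, 26.8% lower). The members' median log2 difference was -0.04, with a range from -2.01 to 0.76, and the median over all genes was -0.01. Their median absolute difference was 0.30, against 0.44 for all genes. The ranges of the 3 arrays did not overlap for 15 members, 6 above and 9 below primary cells, against 60.0% of all genes, 29.4% above and 30.6% below. A lower mean was seen for 20 members, against 50.5% of all genes.

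Among genes of mitotic entry, cyclin genes lay on opposite sides. Ccna2 encodes cyclin A2, which acts with CDKs from S phase into early mitosis. Its intensity, in the authors' linear MAS5 units, was 2961, 3006 and 3172 on the untreated arrays, 2885, 2436 and 3136 on the DKK1-treated arrays, and 5723, 5792 and 6042 on the primary arrays. All 6 ESC-RPC values lay below all 3 primary values, and the untreated group was 1.92-fold lower (log2 difference -0.94 ± 0.09 SE, adjusted p = 1.4e-05 in limma). Ccnb2 encodes cyclin B2, a partner of CDK1, and went the other way. It stood at 3378 ± 193 in untreated cells (SD, n = 3) and 2174 ± 297 in primary cells, 1.56-fold higher in ESC-RPCs (log2 0.64 ± 0.11, adjusted p = 0.000729).

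Cdk1, the catalytic subunit itself, had intensities of 3727, 3848 and 3761 in untreated, 3413, 3082 and 3856 in DKK1-treated and 4682, 4583 and 4969.7 in primary RPCs. The ESC-RPC and primary ranges did not overlap, while the ESC-RPC groups overlapped each other, and untreated cells were 1.26-fold below primary cells (log2 -0.33 ± 0.08, adjusted p = 0.00786). Cdc25c, a phosphatase that activates CDK1, spread widely in primary cells, with 637, 372 and 615. Its untreated values of 535, 462 and 549 and its DKK1-treated values of 413, 382 and 554 lay within that range, and the difference of -0.03 ± 0.21 did not pass the test. Cdca3, a trigger of mitotic entry, differed by -0.06 ± 0.16 and did not pass either.

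Of 6 kinase and chromosomal passenger genes, 3 were lower in untreated ESC-RPCs and none was higher, where 26.8% of all genes were lower. Nek2, a centrosome kinase that splits the centrosomes before the spindle forms, read 1062, 843 and 1001 in untreated, 929, 591 and 1107 in DKK1-treated and 1693, 1727 and 1821 in primary RPCs. The primary values were tight and lay above every ESC-RPC value, and the untreated cells were 1.81-fold lower (log2 -0.86 ± 0.19, adjusted p = 0.00387). Aurkb and Cdca8 encode Aurora B and borealin, subunits of the chromosomal passenger complex that corrects faulty attachments. Cdca8 was at 4806 ± 326 in untreated and 6199 ± 431 in primary cells, 1.29-fold lower in untreated cells (log2 -0.37 ± 0.10, adjusted p = 0.0116).

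Aurkb was at 1338 ± 138 and 1682 ± 112 (log2 -0.33 ± 0.12, adjusted p = 0.0376). This call was lost without any one of DKK1-treated replicate 1, untreated replicates 1 or 2, or primary replicates 2 or 3, where the difference was -0.28 to -0.34 and the adjusted p 0.055 to 0.122. Birc5, which encodes survivin, a further subunit of that complex, did not pass the test, at 3504 ± 309 and 3099.8 ± 497. Incenp, the scaffold of the complex and no member of the set, was lower by -0.54 ± 0.10 (adjusted p = 0.000942). Aurka, the centrosomal Aurora kinase, was close to level in all groups, with 1289, 1278 and 1427 in untreated, 1442, 1085 and 1338 in DKK1-treated and 1414, 1386 and 1235 in primary RPCs. All its ranges overlapped. Plk1, the Polo-like kinase, differed by -0.36 ± 0.16 (adjusted p = 0.0866), with values of 1653, 1052 and 1379 in primary cells.

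Checkpoint genes and the parts of the anaphase-promoting complex in the set lay near level, apart from Bub1. Bub1 encodes a kinase that gathers checkpoint proteins at the kinetochore. It read 2441, 2403 and 2761 in untreated, 2451, 2168 and 2686 in DKK1-treated and 1841, 1289 and 1404 in primary RPCs. Every ESC-RPC value exceeded every primary value, and untreated cells were 1.69-fold higher (log2 0.76 ± 0.14, adjusted p = 0.000867); a second, dimmer probe set of Bub1 gave the opposite direction, as described with the probe sets. Ttk, the MPS1 kinase that starts checkpoint signalling, read 1138, 1052 and 1194 in untreated, 1045, 868 and 1144 in DKK1-treated and 1362, 991 and 1077 in primary cells, so that all groups overlapped (log2 -0.01 ± 0.14). Bub1b (BubR1) and Mad2l1 (Mad2), both parts of the complex that inhibits Cdc20, differed by 0.02 ± 0.23 and 0.21 ± 0.10 and did not pass the test. Cdc20, the activator of the anaphase-promoting complex, and Ube2c, its ubiquitin-conjugating enzyme, differed by 0.04 ± 0.14 and 0.13 ± 0.12. Primary replicate 2 was the low array for both: Cdc20 read 8942, 5675 and 7984 in primary cells, and Ube2c 6943, 5054 and 6943.

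At the kinetochore, 2 of 5 members were lower in ESC-RPCs, where 26.8% of all genes were lower. Both belong to the NDC80 complex, which grips the microtubule. Nuf2 read 439, 467 and 602 in untreated, 485, 466 and 574 in DKK1-treated and 2094, 1962 and 1981 in primary RPCs. No ESC-RPC array came near the primary range, and the 4.04-fold difference was the largest among the 34 members (log2 -2.01 ± 0.13, adjusted p = 9e-07). Ndc80, its partner and the namesake of the complex, read 513, 573 and 687 in untreated, 510.3, 496 and 519.5 in DKK1-treated and 1189, 1064 and 984 in primary cells. Both ESC-RPC ranges, which overlapped each other, lay below the primary range, and untreated cells were 1.83-fold lower than primary cells (log2 -0.87 ± 0.13, adjusted p = 0.000212).

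The other subunits of that complex, Spc24 and Spc25, are no members and were tested in the list of other kinetochore genes. Spc25 was at 2310.1 ± 138 in untreated and 6635 ± 574 in primary cells, 2.87-fold lower (log2 -1.52 ± 0.10, adjusted p = 8.91e-07), and Spc24 was lower by -0.26 ± 0.10 (adjusted p = 0.0457). All 4 subunits passed as lower in untreated ESC-RPCs, by unequal amounts. Spc24 lay close to the threshold and was named after its value was seen. Cenpa, the histone variant that marks centromeres, differed by 0.14 ± 0.18. Cenpe, a kinetochore motor, read 787, 831 and 863 in untreated, 809.7, 626 and 827 in DKK1-treated and 1444, 685 and 729 in primary cells. Its primary replicate 1 lay far above all other arrays, and the difference of -0.12 ± 0.24 did not pass. Cenpf, a large outer kinetochore protein, had the same high array (3498, against 2133 and 2092 on the other primary arrays) and differed by -0.33 ± 0.19.

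Of the motor and cytokinesis genes 1 of 5 was lower in untreated ESC-RPCs, where 26.8% of all genes were lower. Kif23 encodes MKLP1, the kinesin of the centralspindlin complex at the midzone. It read 800.2, 723 and 872 in untreated, 810.2, 649 and 900.4 in DKK1-treated and 1973, 1719.98 and 1740.3 in primary RPCs. The overlapping ESC-RPC ranges lay well below the primary range, and untreated cells were 2.27-fold lower than primary cells (log2 -1.18 ± 0.13, adjusted p = 3.74e-05). Anln, the scaffold anillin of the contractile ring, read 1736, 1583 and 1976 in untreated, 1771, 1792 and 2204 in DKK1-treated and 2037, 1604 and 1592 in primary cells, with all ranges overlapping (log2 0.02 ± 0.13). Kif11, the spindle motor Eg5, differed by -0.31 ± 0.16, Kif20a (MKLP2) by 0.12 ± 0.16 and Kif2c, the microtubule depolymerase MCAK, by 0.38 ± 0.16; none passed the test.

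Spindle assembly genes were split. Ckap2, a microtubule-binding protein of the spindle, read 3543, 3325 and 3938 in untreated, 3271, 2889.6 and 3449.7 in DKK1-treated and 2958, 2278 and 2816 in primary cells. Untreated arrays all lay above primary arrays (log2 0.43 ± 0.11, adjusted p = 0.00892). Hmmr, a spindle-pole protein also known as RHAMM, read 1419, 1428 and 1508 in untreated, 1360.4, 1188 and 1457 in DKK1-treated and 1387, 781 and 943 in primary cells. Its log2 difference of 0.53 ± 0.18 passed the test (adjusted p = 0.0289), but the call was lost without any one of the 3 untreated replicates or of primary replicates 2 or 3, where the adjusted p was 0.0621 to 0.0802 and the difference 0.34 to 0.54. Tacc3, a stabiliser of spindle fibres, read 1058, 1033 and 1189.6 in untreated, 1072, 846 and 1135 in DKK1-treated and 1114, 1123 and 1138 in primary cells, and did not differ past the test (log2 -0.04 ± 0.12).

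Tpx2, the activator of Aurora A on the spindle, read 1211, 1167 and 1363 in untreated, 1134, 998 and 1228 in DKK1-treated and 1802, 1221 and 1629 in primary cells. The untreated range overlapped the primary range at primary replicate 2 and the difference of -0.30 ± 0.15 did not pass. Nusap1, which bundles microtubules near chromosomes, differed by -0.26 ± 0.11 (adjusted p = 0.0631).

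The general proliferation markers differed in their result when each was read from its brightest probe set. Mki67 encodes Ki-67, which coats mitotic chromosomes and is used to mark cycling cells. It read 3742, 4417 and 4188 in untreated, 3865, 3312 and 4477 in DKK1-treated and 6787, 6292 and 5969 in primary RPCs. Primary values lay above all ESC-RPC values, and untreated cells were 1.54-fold lower (log2 -0.63 ± 0.11, adjusted p = 0.000792). Top2a encodes topoisomerase II alpha, which untangles sister chromatids. It read 8349, 8387 and 9299 in untreated, 7909, 7086 and 8438 in DKK1-treated and 8146, 7773 and 8372 in primary cells. The untreated and primary ranges overlapped, and the difference of 0.10 ± 0.08 did not pass the test (adjusted p = 0.295). A dimmer Top2a probe set was lower in untreated cells, by -0.79 ± 0.15 (adjusted p = 0.00141), the same direction as Mki67.

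DKK1-treated ESC-RPCs were set against the same 3 primary arrays, so this comparison shares its control samples with the one above, and the values stand side by side without a measure of likeness. Again 13 of 34 members passed, against 52.8% of all genes, with 2 higher (Bub1 and Ccnb2) and 11 lower, where 26.0% of all genes were higher and 26.8% lower. Ranges did not overlap for 2 members above and 9 below primary cells, against 59.2% of all genes, 28.9% above and 30.2% below. A lower mean was seen for 24 of 34 members and 50.4% of all genes. The members' median was -0.18 and that of all genes -0.01. Nuf2 differed by -1.99 ± 0.13 (adjusted p = 9.82e-07), Kif23 by -1.21 ± 0.13 (adjusted p = 3.13e-05), Ndc80 by -1.08 ± 0.13 (adjusted p = 4.88e-05), Ccna2 by -1.06 ± 0.09 (adjusted p = 5.9e-06) and Nek2 by -1.04 ± 0.20 (adjusted p = 0.00119). Mki67 was lower by -0.72 ± 0.11 (adjusted p = 0.000324) and Cdk1 by -0.46 ± 0.08 (adjusted p = 0.00102). Bub1 was higher by 0.70 ± 0.14 (adjusted p = 0.00147) and Ccnb2 by 0.49 ± 0.11 (adjusted p = 0.0038). All 9 members that were lower in untreated cells were lower here too.

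Tpx2 (-0.46 ± 0.15, adjusted p = 0.0224) and Nusap1 (-0.32 ± 0.11, adjusted p = 0.0305) passed in DKK1-treated cells and not in untreated cells, while Hmmr (0.40 ± 0.18, adjusted p = 0.0804) and Ckap2 (0.26 ± 0.11, adjusted p = 0.077) passed in untreated cells only. Those 4 genes are not shown to differ between the ESC-RPC groups: the direct comparison of DKK1-treated with untreated cells called none of them. The calls of Tpx2 and Nusap1 were each lost without any one of DKK1-treated replicates 1 or 2 or primary replicates 1 or 3, with adjusted p of 0.0532 to 0.0846 and 0.0688 to 0.122.

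**Figure D3:**
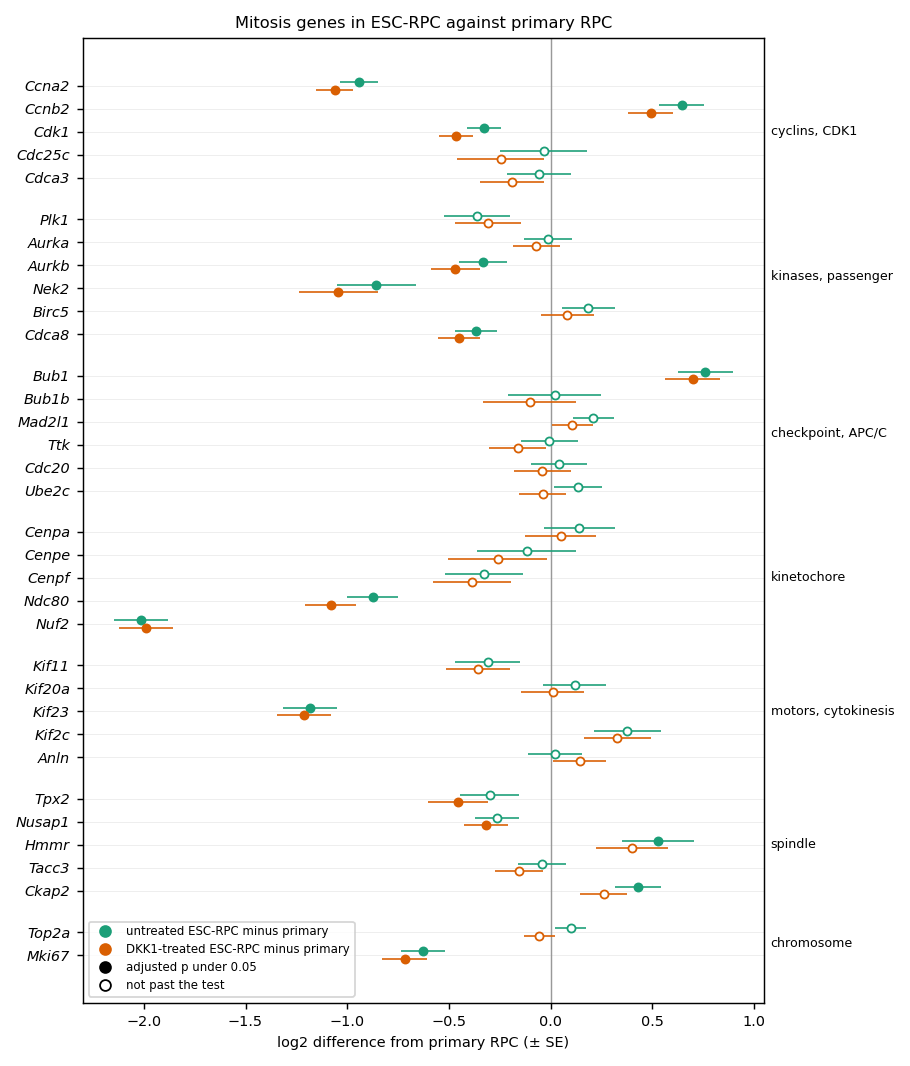
Log2 difference (± SE) of each member in untreated and in DKK1-treated ESC-RPCs from the same 3 primary arrays, with filled points past an adjusted p of 0.05. Of 34 members 13 pass in each comparison; Nuf2 lies at -2.01 and -1.99, Bub1 at 0.76 and 0.70.

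Primary replicate 2 weighed on both comparisons. Without it, 16 of 34 members (47.1%) passed in untreated against primary cells, against 54.6% of all genes, with 3 higher and 13 lower, and the median moved from -0.04 to -0.27; Cdca3, Plk1, Kif11, Tpx2 and Nusap1 were then lower, and Aurkb and Hmmr no longer passed. In DKK1-treated against primary cells 20 of 34 (58.8%) passed without it, against 54.6% of all genes, 2 of them higher and 18 lower, with a median of -0.39. In that comparison the members' share lay below that of all genes with the array and above it without. The 7 added there were Cdc25c, Cdca3, Plk1, Bub1b, Cdc20, Ube2c and Kif11. Without DKK1-treated replicate 2, 11 of 34 (32.4%) passed in DKK1-treated against primary cells, against 46.2% of all genes, with a median of -0.07. Without untreated replicate 2, 11 of 34 passed in untreated against primary cells, against 45.1% of all genes, and the median changed sign to 0.005. Without primary replicate 1 the median was 0.071 in untreated and -0.073 in DKK1-treated against primary cells. Nuf2, Kif23, Ccna2, Ndc80, Nek2, Mki67, Cdca8, Cdk1, Bub1, Ccnb2 and Ckap2 kept their call in untreated against primary cells when any single array was left out. Other arrays changed fewer calls. In untreated against primary cells Nusap1 also passed without DKK1-treated replicate 2 or 3 or untreated replicate 3 (adjusted p of 0.0422 to 0.0488), Kif11 without untreated replicate 3 (0.0472) and Kif2c without primary replicate 1 (0.0457). In DKK1-treated against primary cells Hmmr and Ckap2 passed as higher without primary replicate 1 (adjusted p of 0.00227 and 0.0438), and Kif11 as lower without DKK1-treated replicate 3 (0.0472).

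Probe sets of the same gene, which read different stretches of its transcripts, were set side by side for untreated against primary cells. The 34 members had 71 kept probe sets, and 23 members had more than 1. Tested one by one, 48.8% of all 24793 kept probe sets passed. For 4 of the called members every kept probe set passed in the same direction: Ccna2 (-0.94 and -0.88), Nek2 (-0.86, -1.15 and -0.92), Cdca8 (-0.37, -0.36 and -0.36) and Kif23 (-1.18 and -1.09). Nuf2, Ndc80, Ccnb2, Cdk1, Ckap2 and Mki67 had 1 kept probe set each and no such check.

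Bub1 and Hmmr had probe sets called in opposite directions. The brightest Bub1 probe set gave 0.76, while a dimmer one, at 132 ± 13.1 in untreated and 436.5 ± 92.4 in primary cells, gave -1.71 ± 0.21 (adjusted p = 6.42e-05). The direction for Bub1 thus holds only for the stretch its brightest probe set reads. In Hmmr, 3 other probe sets lay on the same side as the brightest without passing, and the dimmest was lower by -0.65 ± 0.19 (adjusted p = 0.0135).

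For Aurkb the second probe set, also bright, gave 0.25 and did not pass (adjusted p = 0.193), so its call also rests on 1 of 2 probe sets. Several members whose brightest probe set did not pass had a dimmer one that did. It lay on the same side as the brightest in Kif11 (-0.65, adjusted p = 0.0029), Tpx2 (-0.41, adjusted p = 0.0258) and Kif2c (0.40, adjusted p = 0.029), and on the other side in Top2a (-0.79), Nusap1 (0.68) and Tacc3 (0.68 and 1.79). A dim Aurka probe set was higher in untreated cells, where its primary mean of 7.40 lay far below the arrays' 40th percentile. Taking that percentile as the floor on each primary array, the difference was at least 1.57-fold. This Aurka probe set passed the filter only through ESC-RPC arrays, so the filter set its direction. A second Cenpa probe set, dim in ESC-RPCs, read between 513.4 and 513.7 on the 3 primary arrays, with an SD of 0.106. It lay below the 40th percentile in untreated cells, at least 11.04-fold lower there with that percentile as the floor. It passed the filter only through the primary arrays, so this bound is no support for a difference in Cenpa. The reason for its small spread in primary cells is unknown. On the brightest Cenpa probe set the SD in primary cells was 934 on a mean of 3615.

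**Figure D4:**
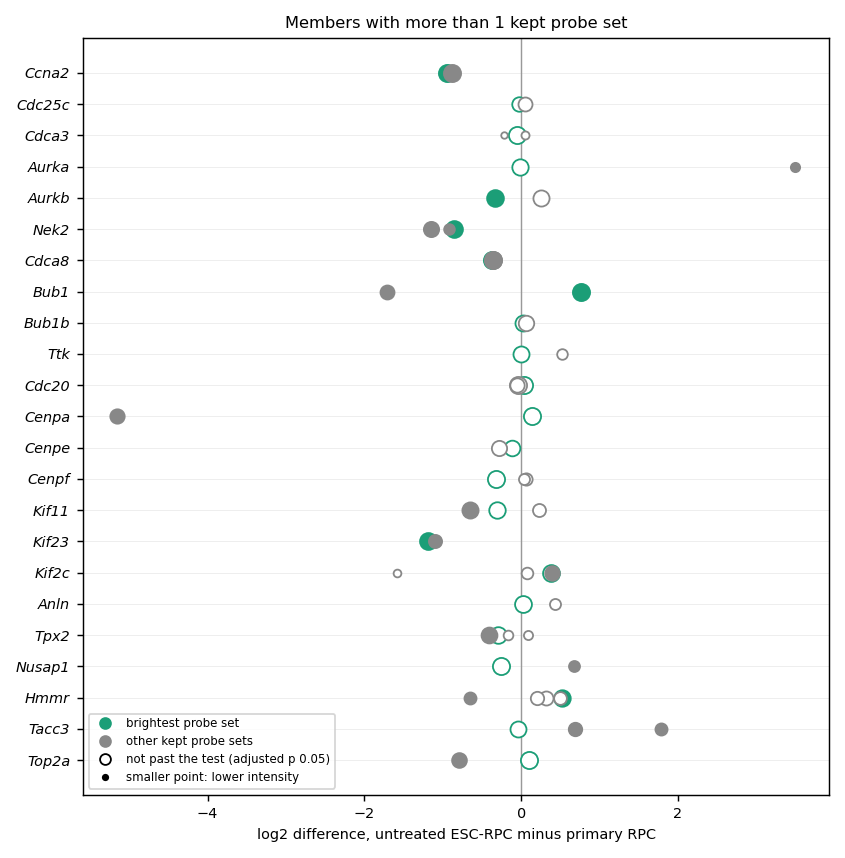
Log2 difference between untreated ESC-RPCs and primary RPCs for every kept probe set of the 23 members with more than 1, with the brightest in green, the others in grey, filled where the adjusted p was under 0.05, and smaller where dimmer. Points of Ccna2, Nek2, Cdca8 and Kif23 lie together below 0; filled points of Bub1 lie at 0.76 and -1.71.

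Other genes of mitosis, in 5 lists by function, leaned lower in ESC-RPCs. Of 118 tested of 123 listed, 13 were higher and 42 lower in untreated than in primary cells (46.6% called, against 53.0% of all genes), with a median of -0.22 against -0.01 for all genes. Among 17 genes that control CDK1, 3 were higher and 4 lower: Mybl2, a MYB factor of the MuvB complex, was higher by 1.03 ± 0.24 (adjusted p = 0.00425) and Cdc25a, a CDK-activating phosphatase, by 0.65 ± 0.13 (adjusted p = 0.00168), while its relative Cdc25b was lower by -0.81 ± 0.19 (adjusted p = 0.00519). Foxm1, the forkhead factor of G2 genes, was lower by -0.56 ± 0.17 (adjusted p = 0.0172). Of 33 other kinetochore and checkpoint genes 3 were higher and 15 lower, among them Spc25, Zw10 (-0.80 ± 0.11, adjusted p = 0.000203) and Ska2 (-0.70 ± 0.11, adjusted p = 0.00029), which act in checkpoint silencing and in microtubule coupling. Spc24, Incenp and Foxm1 are named as partners or regulators of members, a choice made after their values were seen.

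Of 30 other spindle and cytokinesis genes 2 were higher and 11 lower, where 26.1% of all genes were higher and 26.8% lower. Ckap2l, a spindle protein related to Ckap2, was lower by -1.36 ± 0.13 (adjusted p = 1e-05) where Ckap2 was higher, and the minus-end motor Kifc1 was lower by -0.86 ± 0.09 (adjusted p = 3.34e-05). Ccnb1ip1, an E3 ligase known from meiosis, was higher (adjusted p = 1.24e-06 in limma), but its primary mean of 25.5 lay below the 40th percentile of every array. With that percentile as the floor it was at least 4.27-fold higher. Since no primary array exceeded that floor, Ccnb1ip1 was kept only through ESC-RPC arrays and the filter set its direction. Of 21 condensin, cohesin and separase genes 1 was higher and 8 lower: Pttg1, the securin that holds separase in check, was higher by 0.78 ± 0.08 (adjusted p = 2.83e-05), and the condensin II subunits Ncapg2 and Ncapd3 were lower by -1.03 ± 0.17 (adjusted p = 0.000505) and -0.62 ± 0.11 (adjusted p = 0.000832). The 17 genes of the anaphase-promoting complex had 4 on each side, with Cdc27 higher by 0.97 ± 0.07 (adjusted p = 2.09e-06), Anapc10 higher by 0.44 ± 0.08 (adjusted p = 0.000916) and Anapc15 lower by -1.10 ± 0.09 (adjusted p = 4.93e-06). In DKK1-treated against primary cells the 5 lists held 9 higher and 46 lower of 118 (46.6% called, against 52.8% of all genes). Without primary replicate 2 the counts were 16 higher and 43 lower in untreated and 14 higher and 44 lower in DKK1-treated against primary cells, with medians of -0.21 and -0.24 and 54.6% of all genes called in each. Without untreated replicate 2, 12 were higher and 28 lower in untreated against primary cells, with 45.1% of all genes called.

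Genes of DNA replication, the phase before G2, leaned the other way. Of 43 tested of 45 listed, 17 were higher and 2 lower in untreated cells than in primary cells, 44.2% in all, where 26.1% of all genes were higher and 26.8% lower. Their median was 0.34, against -0.04 for the mitosis members. In DKK1-treated against primary cells 14 were higher and 2 lower (37.2%, against 52.8% of all genes), with a median of 0.24 against -0.18. These counts turned on primary replicate 2. Without it, 29 were higher and 1 lower in untreated cells (69.8%, against 54.6% of all genes; median 0.55), and 25 higher and 2 lower in DKK1-treated cells (62.8%, against 54.6%; median 0.44). On primary arrays the replication genes' median from their mean over 9 arrays was -0.36, 0.19 and -0.44. That of the mitosis genes was 0.25, -0.13 and 0.17, so primary replicate 2 was high for replication and low for mitosis. For replication genes the median was 0.11, 0.09 and 0.28 on untreated arrays and 0.10, -0.11 and 0.25 on DKK1-treated arrays. Primary replicate 2 lay within both of these ranges, so the lean rested on primary replicates 1 and 3.

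Markers of most cell types also differed between ESC-RPCs and primary cells. Of all genes 26.1% were higher and 26.8% lower in untreated than in primary cells, 53.0% in all. Photoreceptor precursor markers, including Crx, Nrl and Rcvrn, were lower in untreated than in primary cells for 10 of 11. Their summed intensities were 1556 to 1893 in untreated, 1313 to 1762 in DKK1-treated and 33501 to 48511 in primary cells. Crx, Nrl, Rcvrn, Sag, Pdc, Rp1 and Opn1sw lay below the 40th percentile on every ESC-RPC array. These genes passed the filter on dim signals only through the primary arrays, so the filter set their direction. Retinal progenitor markers were lower for 8 and higher for 4 of 13, with sums of 34676 to 38929 in untreated, 32415 to 38301 in DKK1-treated and 62046 to 66233 in primary cells; Rax, an eye field factor, lay below the 40th percentile on the DKK1-treated arrays. Neuron markers had 3 higher and 6 lower of 13, with sums of 44557 to 50391 in untreated, 43621 to 53236 in DKK1-treated and 46288 to 53288 in primary cells. These neuron sums overlapped across all groups. Pluripotent stem cell markers were higher for 9 of 10, at 18885 to 22909 in untreated, 21972 to 23728 in DKK1-treated and 564 to 887 in primary cells. Nanog, Zfp42, Dppa4, Tdgf1 and Utf1 lay below the 40th percentile on every primary array. They passed the filter only through ESC-RPC arrays, so the filter set their direction. Mesenchyme markers were higher for 7 and lower for 1 of 9. Their sums were 19532 to 23185 in untreated, 19721 to 22668 in DKK1-treated and 3250.4 to 4729.7 in primary cells. Among them Lum and Twist1 lay below the 40th percentile on every primary array and were kept only through ESC-RPC arrays. General neural progenitor markers were higher for 5 and lower for 1 of 8 (59848 to 63568, 57628 to 59132 and 35869.6 to 41620.4, in the same order of groups), and astrocyte markers higher for 5 of 5 (18271 to 21104, 18339.5 to 21041 and 1629 to 1899.6). Sox1 and Pax3 of the former and Gfap and Aqp4 of the latter lay below the 40th percentile on every primary array. These genes too were kept only through ESC-RPC arrays. The ESC-RPCs had been sorted for Sox1, so its higher value followed from the design. Microglia markers were lower for 4 of 6 (146 to 178, 112 to 215.4 and 843 to 1427) and blood vessel markers for 2 of 3 (222 to 238, 179 to 261 and 5616 to 7591). The microglia markers called lower, Ctss, C1qa, C1qb and Tyrobp, lay below the 40th percentile on every ESC-RPC array. They were kept only through the primary arrays. For each marker kept only through the brighter cells the filter set the direction, so counts that hold such markers are no support for a difference. No red blood cell marker of 5 was tested, since none had a kept probe set given to it alone. The part of these cell types in the mitosis gene differences was not tested.

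The design also asks what DKK1 changes in ESC-RPCs. After 1 day of DKK1 the mitosis genes leaned slightly lower, most so in replicate 2, and no member passed the test. Members moved together from array to array, so their number is not one of independent results. Of 34 members 31 had a lower mean of log2 in DKK1-treated than in untreated cells, where 50.5% of all genes did, and the members' median was -0.11 against -0.002 for all genes. Differences ran from -0.21 ± 0.21 (Cdc25c) to 0.12 ± 0.13 (Anln), and the median SE of a member's difference was 0.13. In limma's fit 0 of 34 members passed an adjusted p of 0.05, with 0.00% of all 13331 genes called. At an unadjusted p of 0.05, 0 members and 308 genes (2.31%) passed.

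Top2a had the smallest p among the members, 0.0679 before and above 0.99 after adjustment, with a difference of -0.15 ± 0.08. The ranges of the 3 arrays did not overlap for Ccnb2 and Ube2c, both below untreated cells. Of all genes 12.0% had ranges that did not overlap, 6.73% with DKK1-treated cells below and 5.24% with DKK1-treated cells above. Ube2c read 6192, 5515 and 6565 in DKK1-treated and 6800.3, 6864 and 6889 in untreated cells. Ccnb2 read 3193, 2717 and 3224 in DKK1-treated and 3296, 3241 and 3599 in untreated cells, so the gap between the groups was narrow (3224 and 3241). Plk1, Nuf2 and Anln were the 3 members with a higher mean after DKK1.

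The lean was smaller without the arrays numbered 2. Without DKK1-treated replicate 2, 18 of 34 members had a lower mean, with a median of -0.005, but this keeps untreated replicate 2, the lowest of its own group for 20 members. Without both arrays of that number, 24 of 34 had a lower mean, with a median of -0.03. Set against the untreated array of the same number, 33 of 34 members were lower in replicate 2, with a median of -0.23, against 20 members (median -0.02) in replicate 1 and 24 members (median -0.06) in replicate 3. In all 3 pairs 15 of 34 members were lower, against 19.0% of all genes; they include Ccna2, Ccnb2, Cdca3, Aurkb, Birc5, Ttk, Ube2c, Ndc80, Tpx2, Ckap2 and Top2a. Anln was higher in all 3 pairs.

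With the replicate number as a block on the 6 ESC-RPC arrays, limma called 53 of all genes (0.398%) and 0 of 34 members. At an unadjusted p of 0.05 this blocked fit had 14 members and 15.0% of all genes. Its smallest adjusted p among members were those of Ckap2 (-0.17 ± 0.04, adjusted p = 0.0937), Top2a (-0.15 ± 0.04, adjusted p = 0.102) and Ube2c (-0.17 ± 0.05, adjusted p = 0.119). Other cell-cycle genes leaned the same way after DKK1 without a call. A lower mean was seen for 80 of 118 genes in the other mitosis lists and 38 of 43 replication genes, against 50.5% of all. Their medians were -0.04 and -0.10, against -0.002 for all genes. Without DKK1-treated replicate 2 the counts were 53 of 118 and 24 of 43, with medians of 0.01 and -0.007. The other mitosis lists then no longer leaned lower. Without both arrays of that number the counts were 69 of 118 and 32 of 43, with medians of -0.02 and -0.05.

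**Figure D5:**
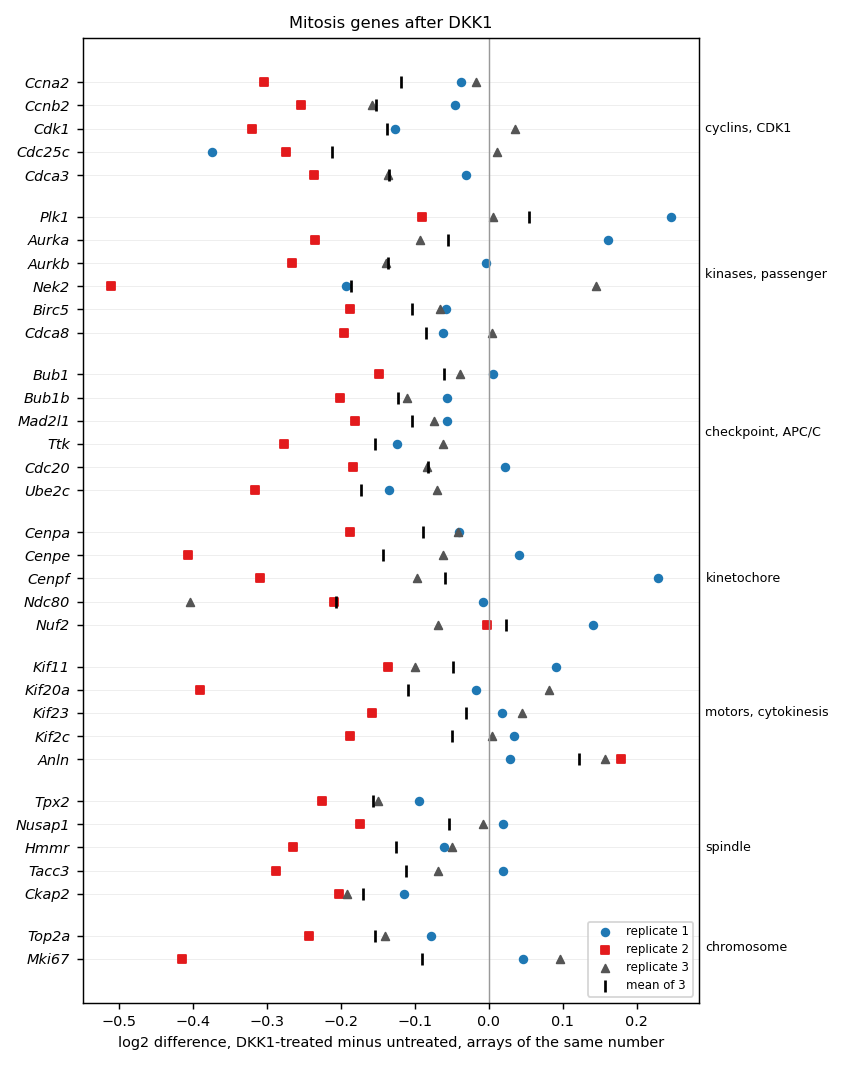
Log2 difference between the DKK1-treated and the untreated ESC-RPC array of the same replicate number for each of 34 members, with bars at the mean of 3. Squares of replicate 2 lie below 0 for 33 members; 15 members lie below 0 in all 3 pairs and Anln lies above 0 in all 3.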

How the data were processed

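Total RNA from 9 samples, 3 in each of 3 groups, was hybridised to Affymetrix 3′ expression arrays. The authors deposited linear intensity values made with MAS5, per the submitters' processing notes; its version and settings, and any genome build, are not given in the sources used here. In every deposited column the mean after trimming 2% at either end was 500 and no intensity lay below 1, so arrays were already scaled and no normalisation was added. Of 45101 probe sets, 64 were controls, 932 matched several genes, 9160 were listed with no gene and 34958 had 1 gene. Probe sets above the 40th percentile of their own array on 3 or more of the 9 arrays were kept (24793), and each gene took its brightest kept probe set, giving 13331 genes. Log2 intensities were fitted in limma 3.58.1 (R 4.3.3; lmFit, then eBayes with an intensity trend) with 1 mean per group over 9 arrays. Benjamini-Hochberg adjustment ran over all genes, a call is an adjusted p under 0.05, and log2 differences carry standard errors.

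The labels state biological repeats but no pairing. Deviations from group means correlated by 0.126 to 0.318 between DKK1-treated and untreated arrays of the same number, against -0.235 to 0.0678 for different numbers, so these numbers were taken to pair those arrays; with primary arrays they did not (-0.043 to 0.000471). No scan date or other batch label was used. Promoter sequences came from RefSeq (GRCm38.p6).

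The member genes and gene lists were chosen with earlier results of these data known. Per-array values were given for Mki67, Top2a and Cdk1 and, in each role, for the members with the largest difference in each comparison and the smallest in untreated against primary cells; other lists name their 3 genes of smallest adjusted p. Further arrays' values are given where a result turned on them. Alternatives tried were quantile normalisation, median centring, no filter, a pseudocount of 32, other choices of probe set, no intensity trend, only the 6 arrays compared, a replicate block, leaving out each array and, chosen after seeing the data, leaving out pairs of arrays numbered 2.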

Additional observations from a re-analysis of the deposited data

How the results depend on the processing

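Quantile normalisation, median centring, no filter and a pseudocount of 32 turned the direction of no called member; median centring lost the call of Aurkb. No intensity trend lost Aurkb and Hmmr in untreated and Nusap1 in DKK1-treated against primary cells, and fitting only the 6 arrays compared lost Hmmr and Nusap1 in the same order. Leaving out 1 array in turn, with 44.8% to 54.6% of all genes called in untreated and 44.7% to 54.6% in DKK1-treated against primary cells, gave 11 to 16 called members in untreated against primary cells (3 to 5 higher, 8 to 13 lower; median -0.27 to 0.071) and 11 to 20 in DKK1-treated against primary cells (2 to 4 higher, 9 to 18 lower; median -0.39 to -0.073), with the ends at -0.27, 20, 18 and -0.39 all from leaving out primary replicate 2. Members with a lower mean after DKK1 numbered 18 to 33, with 18 from leaving out DKK1-treated replicate 2. Leaving out both low arrays, DKK1-treated and primary replicate 2, an alternative chosen after seeing the data, gave 18 of those. In untreated against primary cells it gave 3 higher and 14 lower members with a median of -0.27, and 54.1% of all genes called. In DKK1-treated against primary cells it gave 2 higher and 13 lower members, with 50.2% of all genes called. Leaving out both ESC-RPC arrays numbered 2, also chosen after seeing the data, gave 12 and 11 calls against primary cells, with 42.9% and 42.6% of all genes called. With a replicate block on 9 arrays, 18 members were called in untreated and 16 in DKK1-treated against primary cells (52.9% of all genes in each), 4 of the latter higher; the block on 6 arrays called 53 of all genes after DKK1, and no intensity trend called 1. The choice of probe set turned signs. In DKK1-treated against primary cells 4 of 17 called members were higher with the mean of all kept probe sets, with 51.8% of all genes called. With the second brightest 5 of 18 called members were higher, with 48.9% of all genes called. Where either setting called the gene, signs turned with the mean in untreated against primary cells for Aurka (1.74), Bub1 (-0.47), Cenpa (-2.51), Tacc3 (0.81) and Top2a (-0.35), and in DKK1-treated against primary cells for Aurka (1.64), Bub1 (-0.44), Cenpa (-2.98), Nusap1 (0.29) and Tacc3 (0.69). With the second brightest they turned for Aurka (3.50), Aurkb (0.25), Bub1 (-1.71), Cenpa (-5.16), Nusap1 (0.68), Tacc3 (0.68) and Top2a (-0.79) in untreated cells, and for Aurka (3.36), Aurkb (0.040), Bub1 (-1.57), Ttk (0.74), Cenpa (-6.02) and Nusap1 (0.90) in DKK1-treated cells. A further 5 members in untreated (with either choice) and 1 (mean) or 4 (second brightest) in DKK1-treated against primary cells changed sign uncalled in both settings. The values for Aurka and Cenpa set a dim group against a bright one and are fitted values, not bounds. Their dimmer probe sets passed the filter only through the bright group, so these turned signs are no support for a difference. The cause was not tested. Dim probe sets, with signal close to background, limit these values, and 3 arrays a group limit all of them.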
